A study of Mus musculus with 24 samples.

Results

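Chromatin remodelers and histone modifiers are the proteins that slide, evict or exchange nucleosomes, and that write, erase and read the chemical marks on histones and DNA. The set was taken by gene symbol, as every gene on an array probe with exactly 1 symbol whose name falls in the families Smarc, Chd, Hdac, Kdm, Kmt, Kat, Setd, Brd, Arid, Cbx, Sirt, Dnmt, Baz, Ruvbl or Ing, together with Ezh2, Eed, Suz12, Bptf, Ehmt1 and Ehmt2. It held 87 genes on 141 probes, of 6970 genes with such probes in all. Of these, 49 were on slide type 1 (of 3838 genes) and 59 on slide type 2 (of 4075 genes), with 21 on both. A further 7 and 8 probes carried a symbol of the set along with other symbols and were left out.

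The samples were mouse embryos in culture, and no strain, genotype, sex or stage is given in the labels. The heat-shocked group spent 15 min at 43 °C, went back to 37 °C and was taken 1 h later, and the control group stayed at 37 °C without treatment. Total RNA of both groups was hybridised to the 2 channels of 24 arrays, in 3 numbered treatments, 2 slide types with different probes, and both channel orders, so that each treatment had 4 arrays per slide type. The labels also describe embryos taken at a later time and embryos given a drug, which are not among these arrays.

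The values are the authors' deposited log ratios, whose log base and numerator are not stated. The sign was turned on arrays with heat-shocked RNA in channel 2, each array was centred on its median, and the 4 arrays of a treatment were averaged, so each gene has 3 values per slide type. Values are therefore given as positive or negative side, relative to the array median; without centring the median of all genes would be 0.27 on slide type 1 and 0.034 on slide type 2. The positive side is the one on which Hsph1 (2.28 ± 0.50, SD, n = 3 treatments) and Jun (1.97 ± 0.33) lay on slide type 1 and Hspb1 (2.23 ± 0.050) and Egr1 (1.74 ± 0.72) on slide type 2, genes known to be induced by heat or stress. The chaperone Hsp90aa1 lay there on both (1.18 ± 0.35 and 1.14 ± 0.48). The induction of these genes was not used to fix the direction, and with the opposite sign both sides would swap while all sizes stayed the same. A gene is said to pass where the test of limma, fitted to all genes of the slide type, gave a Benjamini-Hochberg adjusted p under 0.05.

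As background, nucleosome remodelers are ATP-driven motors that sit in large complexes, of which the SWI/SNF, ISWI, CHD and INO80 families are the best known. Acetyltransferases and methyltransferases add marks to histone tails, deacetylases and demethylases remove them, and proteins with bromodomains, chromodomains or PHD fingers bind the marks. In the mouse embryo many of these genes are needed for development, and in heat-shocked cells bromodomain proteins, deacetylases and acetyltransferases are known to act at the loci that heat shock factor activates.

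The arrays differed in how well they repeated. Over all probes the treatments correlated with each other with Pearson's r from 0.70 to 0.80 on slide type 1 and from 0.82 to 0.90 on slide type 2, a description across probes. Single arrays of the same channel order fell as low as r = 0.29 on slide type 1 and −0.34 on slide type 2. The 2 channel orders of treatment 2 on slide type 2 stood far apart, with a median distance of 0.95 for the chromatin genes and 0.99 for all genes, against 0.23 and 0.33 for the chromatin genes in treatments 1 and 3. The limma test sees the 3 treatment means and not this distance, so for the genes that passed on slide type 2 the means in both channel orders are given as well, with heat-shocked RNA in channel 1 first. Of 45 embryo tissue markers, 12 were measured on slide type 1 and 5 on slide type 2, none of them for heart muscle. The neuronal tubulin Tubb3 was the 1 marker that passed on slide type 1 (−0.21), and on slide type 2 Col1a1 (−0.60 ± 0.29) and Krt18 (−0.19) passed, all on the negative side. Their part in the results for the chromatin genes was not tested. Ratios do not show whether the tissue markers were expressed at all, and in RNA of whole embryos fewer cells of a type and less RNA per cell cannot be told apart. No label tells whether the treatments came from separate litters, so the p-values measure only the spread between these treatments.

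Of the 49 genes on slide type 1, 7 passed (14.3%, against 11.4% of all genes), 4 on the positive side (8.16%, against 5.73%) and 3 on the negative (6.12%, against 5.65%). Of the 59 genes on slide type 2, 32 passed (54.2%, against 50.4% of all genes), 7 on the positive side (11.9%, against 18.5%) and 25 on the negative (42.4%, against 31.9%). The calls on slide type 2 hang on centring and on joining both channel orders: without centring 1 passed on each side (Arid4a and Ing4), and with either channel order alone 0 passed in limma, with 4 positive and 1 negative gene at an unadjusted p under 0.05 in channel 1 order and 5 and 17 in channel 2 order. The median log ratio of the set was −0.033 on slide type 1, where that of all genes was −0.038, and −0.093 on slide type 2, where that of all genes was −0.049. In all, 38 of the 87 genes passed on at least 1 slide type and 49 on none, a count that was not made for all genes. Leaving out 1 treatment moved the count on the negative side of slide type 1 to 0 (without treatment 1; 3 at an unadjusted limma p under 0.05), 1 (without 2) or 2 (without 3), and that on the positive side of slide type 2 to 4, 9 or 3 in the same order. These counts describe the set beside its background, and no test was made of whether the set differs from other genes.

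The sizes were small beside those of the heat shock genes. On slide type 1, 1 of the 49 genes lay more than 0.5 from 0 (Kdm2a), as did 74 of all 3838 genes. On slide type 2, 2 of the 59 did (Arid4a and Ing4), as did 140 of all 4075. The median distance from 0 was 0.066 on slide type 1 and 0.16 on slide type 2, close to that of all genes (0.072 and 0.15). The genes that did not pass lay between −0.16 and 0.15 on slide type 1 (42 genes) and between −0.15 and 0.16 on slide type 2 (27 genes). The 95% interval reached 0.12 to 0.17 units to each side of a gene's own mean on slide type 1 and 0.12 to 0.15 on slide type 2. A difference as large as the mean and this reach together is thus not shown to be absent. The mean and reach were −0.15 and 0.17 for Setd7 on slide type 1, and 0.16 and 0.15 for Arid1b on slide type 2. If the log has base 2, 1 unit is 2-fold.

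**Figure D1:**
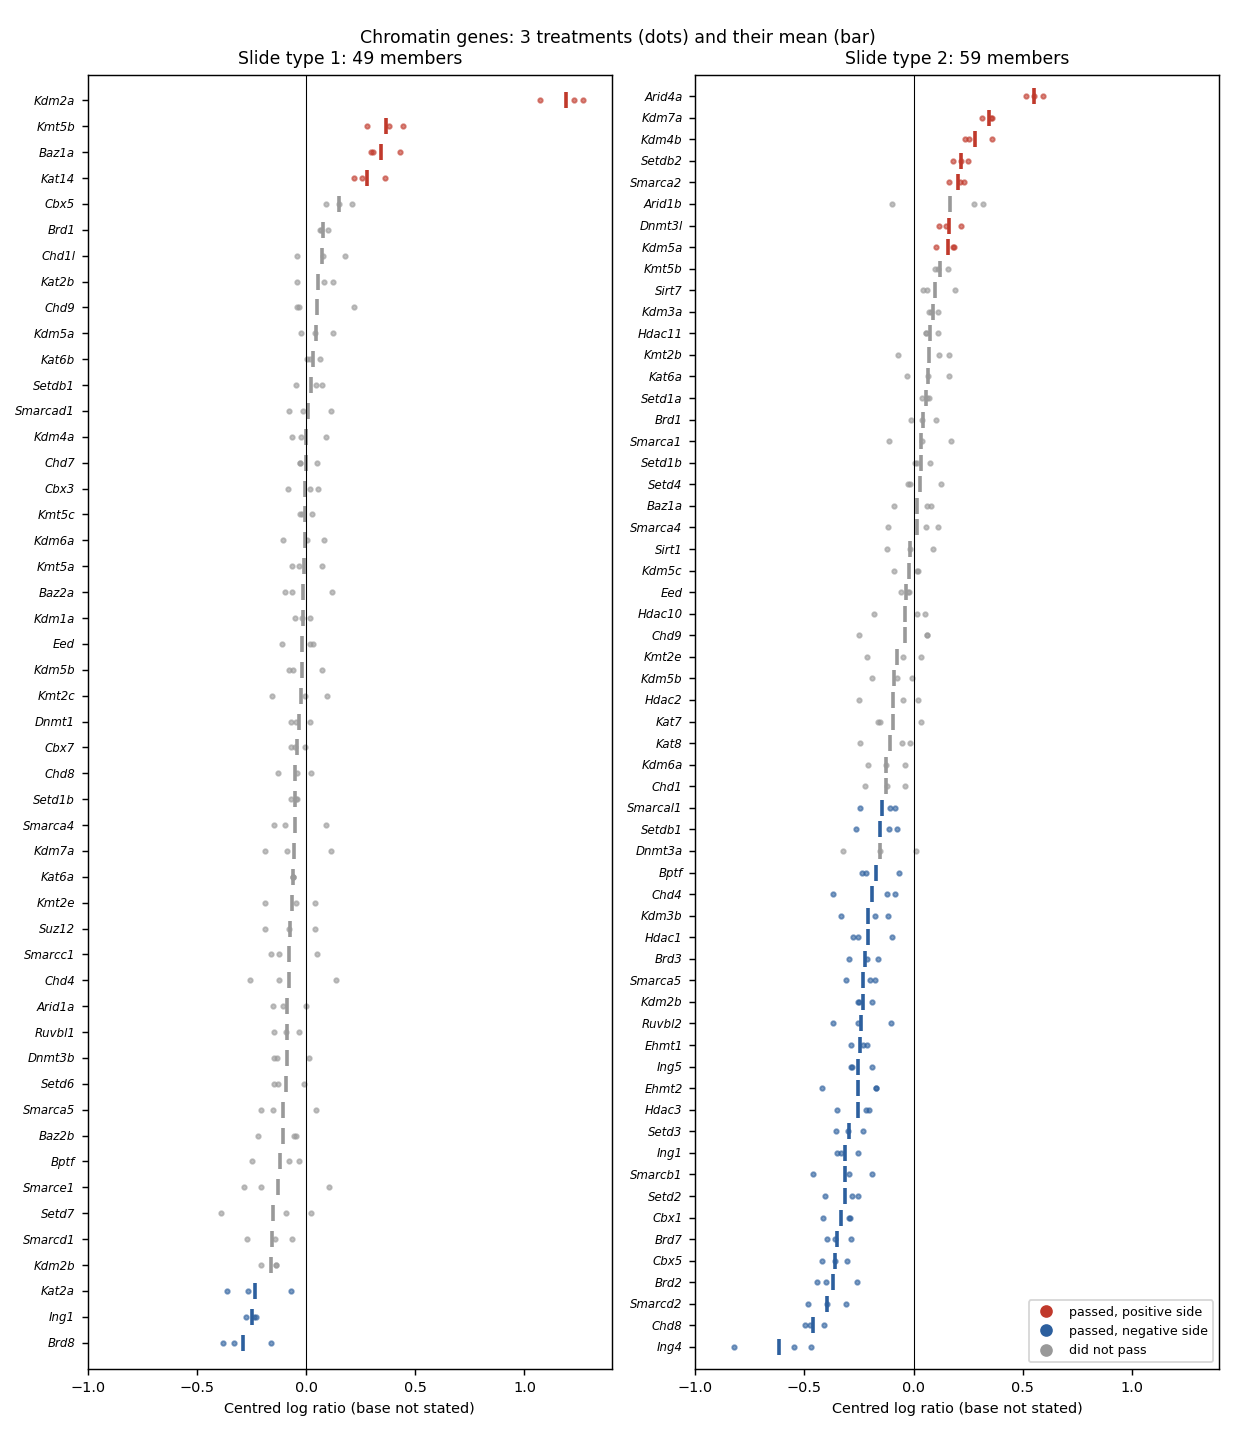
Centred log ratio (horizontal axis, base not stated) of each chromatin gene on slide type 1 (left, 49 genes) and slide type 2 (right, 59 genes), with a dot for each of the 3 treatments and a bar for their mean, coloured by whether and on which side the gene passed. Kdm2a stands alone at the top of slide type 1 with a mean of 1.19, and 25 genes that passed on the negative side form the lower end of slide type 2.

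Lysine demethylases held the largest value of the set. Kdm2a, which removes methyl groups from lysine 36 of histone H3 and binds CpG islands through a zinc finger, had log ratios of 1.07, 1.23 and 1.27 in treatments 1, 2 and 3 on slide type 1. Its mean of 1.19 ± 0.10 (SD, n = 3; limma adjusted p = 3.8e-06) was the 6th highest of the 3838 genes on that slide type. All 6 values by treatment and channel order lay between 0.97 and 1.39, so no array pair brought it near 0. With base 2 the mean would be 2.28-fold, and with a natural log 3.29-fold. It rests on 1 probe, and the gene was not on slide type 2.

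The other 7 demethylases on slide type 1 lay between −0.16 and 0.047 and did not pass. Its paralogue Kdm2b, which brings a Polycomb complex to CpG islands, was at −0.21, −0.14 and −0.14 on slide type 1 (mean −0.16 ± 0.041, limma adjusted p = 0.0985) and at −0.25, −0.19 and −0.25 on slide type 2 (−0.23 ± 0.036, adjusted p = 0.00339). The 2 paralogues thus lay on opposite sides, and only the value of Kdm2b on slide type 2 passed for that gene. In the 2 channel orders of slide type 2, Kdm2b had 0.070 and −0.53.

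Of the 9 demethylases on slide type 2, 3 passed above 0 and 2 below it (33.3% and 22.2%, against 18.5% and 31.9% of all genes). Kdm7a, an eraser of repressive marks on H3K9 and H3K27, had 0.36, 0.36 and 0.31 there (mean 0.34 ± 0.027, limma adjusted p = 0.000169), with its 2 probes at 0.17 and 0.51 and its channel orders at 0.58 and 0.10. Kdm4b, an H3K9 demethylase, had 0.24, 0.25 and 0.36 (0.28 ± 0.065, adjusted p = 0.00097), with channel orders at 0.41 and 0.16. Kdm5a, which removes methyl groups from H3K4, was just past the threshold at 0.16 ± 0.047 (adjusted p = 0.0319) and had 0.35 in one channel order and −0.044 in the other. It did not pass without treatment 1 or without treatment 3, at 0.14 in both cases. Kdm3b, another H3K9 demethylase, lay on the negative side at −0.21 ± 0.11 (adjusted p = 0.00924), again with opposite signs in the channel orders, 0.21 and −0.63. Kdm3a, Kdm5b, Kdm5c and Kdm6a lay between −0.13 and 0.087 and did not pass.

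Among lysine methyltransferases, Kmt5b had the largest value on slide type 1. It adds methyl groups to H4K20 in heterochromatin. It had 0.28, 0.38 and 0.44 in the 3 treatments (mean 0.37 ± 0.083, limma adjusted p = 0.00279), with all 6 values by channel order between 0.26 and 0.48. With 3 other probes on slide type 2 its mean was 0.12 ± 0.030 (adjusted p = 0.0787), with probes between 0.015 and 0.24, and the channel orders disagreed (−0.092 and 0.34). The similarly named Kmt5a (−0.0081) and Kmt5c (−0.0057) lay at 0 on slide type 1 within their intervals. Of the 9 methyltransferases on slide type 1, Kmt5b was the 1 that passed (11.1%, against 11.4% of all genes). The other 8 lay between −0.15 (Setd7) and 0.025 (Setdb1).

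Among the 12 methyltransferases of slide type 2, 5 passed on the negative side and 1 on the positive (41.7% and 8.33%, against 31.9% and 18.5% of all genes). Setd2, the enzyme that trimethylates H3K36 on transcribed genes, had −0.25, −0.28 and −0.41 (mean −0.32 ± 0.081, limma adjusted p = 0.000458), with channel orders at −0.24 and −0.39. Setd3, best known for methylating a histidine of actin, had −0.36, −0.30 and −0.23 (−0.30 ± 0.062, adjusted p = 0.00066), with channel orders at −0.019 and −0.57. The partners Ehmt1 and Ehmt2, which together mono- and dimethylate H3K9, lay at −0.24 ± 0.037 and −0.25 ± 0.14. Ehmt1 had channel orders at −0.10 and −0.39, while those of Ehmt2, which was at −0.17, −0.42 and −0.17 in the treatments, had opposite signs, 0.084 and −0.59.

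The H3K9 trimethylase Setdb1 was at −0.15 ± 0.10 on slide type 2 (limma adjusted p = 0.0429), lost its call whichever of the 3 treatments was left out, with means from −0.19 to −0.096, and was at 0.025 on slide type 1. Its channel orders on slide type 2 were 0.086 and −0.39. Its relative Setdb2 passed on the positive side at 0.21 ± 0.034 (adjusted p = 0.00545). The treatment means of Setdb2 were close, 0.18, 0.22 and 0.25, yet its channel orders were −0.37 and 0.80, and it did not pass without treatment 3 (0.20). The writers of H3K4 methylation on slide type 2, Setd1a (0.057), Setd1b (0.032) and Kmt2b (0.069), did not pass.

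Histone acetyltransferases passed on slide type 1 alone, with 1 gene on each side among 5. Kat14, an acetyltransferase subunit of the ATAC complex, had 0.22, 0.26 and 0.36 (mean 0.28 ± 0.075, limma adjusted p = 0.012). That mean came from 1 of its 3 probes, which lay at 0.93 while the other two lay at −0.071 and −0.022. It did not pass without treatment 1 (0.31). Kat2a (Gcn5), the acetyltransferase of SAGA and ATAC, had −0.071, −0.27 and −0.36 (−0.23 ± 0.15, adjusted p = 0.0497), just inside the threshold, did not pass whichever treatment was left out (means from −0.32 to −0.17), and was at 0.070 without centring. Its paralogue Kat2b was at 0.054. The slide type 2 genes Kat6a (0.067), Kat7 (−0.093) and Kat8 (−0.11) did not pass in limma, where 50.4% of all genes did. Of these 3, 0 had an unadjusted p under 0.05.

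Histone deacetylases were measured on slide type 2 alone, where 2 of 5 passed, both on the negative side (40%, against 31.9% of all genes). Hdac3, the catalytic subunit of the nuclear receptor corepressor complexes, had −0.35, −0.22 and −0.20 (mean −0.26 ± 0.082, limma adjusted p = 0.00213). It was among the few genes of slide type 2 whose 6 values all lay on the same side, from −0.42 to −0.18. Hdac1, shared by the NuRD, Sin3 and CoREST complexes, had −0.28, −0.26 and −0.10 (−0.21 ± 0.10, adjusted p = 0.00831), with channel orders at 0.087 and −0.51, and did not pass without treatment 1 (−0.18). The closely related Hdac2 was at −0.093 ± 0.14 and did not pass, and its 2 probes were at −0.35 and 0.17. Hdac10 (−0.038) and Hdac11 (0.074) did not pass either. The NAD-dependent sirtuins Sirt1 (−0.018) and Sirt7 (0.098) did not pass in limma, and neither had an unadjusted p under 0.05.

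The ING proteins are PHD finger readers of H3K4 trimethylation that bring acetyltransferase or deacetylase complexes to chromatin. They lay on the negative side wherever they were measured, except that Ing1 on slide type 1 was at 0.056 without centring. The same side held 67.1% of all genes on slide type 1 and 57.9% on slide type 2. On it, 5.65% and 31.9% of all genes passed. Ing4, a subunit of the Kat7 (HBO1) acetyltransferase complex, had −0.82, −0.47 and −0.55 on slide type 2. Its mean of −0.61 ± 0.19 (limma adjusted p = 3.41e-06) was the lowest of the set, ranked 29th on the negative side among 4075 genes, and would be a difference of 1.53-fold with base 2 or 1.85-fold with a natural log. Both channel orders gave nearly the same mean, −0.60 and −0.63, with 6 values between −1.05 and −0.18. Ing5, of the same complex, had −0.19, −0.29 and −0.28 (−0.25 ± 0.053, adjusted p = 0.00197), also with 6 values on the same side and channel orders at −0.15 and −0.36.

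Ing1, a subunit of the Sin3 deacetylase complex, was the 1 gene of the set that passed on both slide types. It had −0.23, −0.24 and −0.27 on slide type 1 (mean −0.25 ± 0.024, limma adjusted p = 0.0157), where its 2 probes were at −0.25 and −0.24. It had −0.35, −0.33 and −0.26 on slide type 2 (−0.31 ± 0.051, adjusted p = 0.000393), with channel orders at −0.12 and −0.50. The direction was the same in every treatment on both slide types. Its slide type 1 value did not pass without treatment 1 or without treatment 2, where its mean was −0.26 and −0.25.

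Arid4a, an ARID protein that binds the retinoblastoma protein and belongs to Sin3 complexes, had the highest value of the set on slide type 2. Its 3 values, 0.59, 0.52 and 0.55, lay close together (mean 0.55 ± 0.039, limma adjusted p = 1.52e-06). All 6 values by treatment and channel order lay between 0.40 and 0.78. With base 2 this would be 1.47-fold, and with a natural log 1.74-fold. It rests on 1 probe and was not measured on slide type 1. Ing1 and Arid4a, both found in Sin3 complexes, thus lay on opposite sides.

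**Figure D2:**
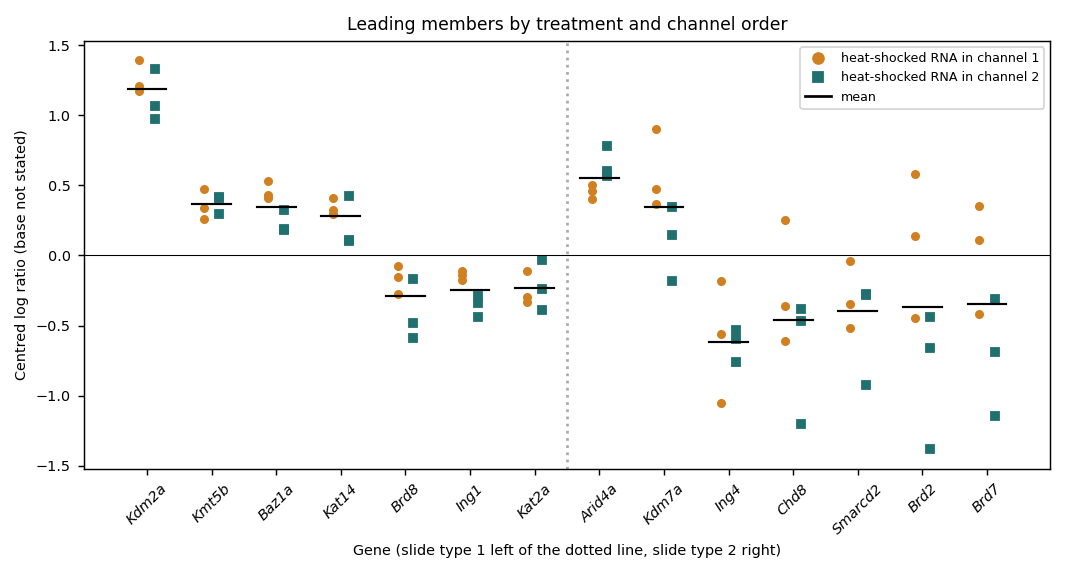
Centred log ratio (vertical axis, base not stated) of 14 leading chromatin genes, the 7 that passed on slide type 1 and 7 that passed on slide type 2, with each treatment shown separately for heat-shocked RNA in channel 1 (circles) and channel 2 (squares) and a line for the mean. The circles and squares of each gene on slide type 1 lie on 1 side of 0, as do those of Arid4a, Ing4 and Smarcd2, whereas those of Kdm7a, Chd8, Brd2 and Brd7 cross it.

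Of 6 SWI/SNF subunits on slide type 2, 3 passed on the negative side and 1 on the positive (50% and 16.7%, against 31.9% and 18.5% of all genes). Smarcd2, an accessory subunit, had −0.40, −0.48 and −0.31 (mean −0.40 ± 0.086, limma adjusted p = 6.63e-05), with 6 values from −0.93 to −0.041. Brd7, the bromodomain subunit of the polybromo form, had −0.36, −0.40 and −0.29 (−0.35 ± 0.055, adjusted p = 0.000166), but its channel orders were 0.016 and −0.71. The core subunit Smarcb1 had −0.29, −0.46 and −0.19 (−0.31 ± 0.14, adjusted p = 0.000794), with channel orders at −0.24 and −0.39.

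The 2 alternative ATPases of SWI/SNF differed in their calls. Smarca2 (Brm) passed on the positive side with 0.21, 0.16 and 0.23 (mean 0.20 ± 0.037, limma adjusted p = 0.00793), with channel orders at 0.48 and −0.077, and did not pass without treatment 1 (0.20) or treatment 3 (0.19). Smarca4 (Brg1) was at 0.015 ± 0.12 on slide type 2, where its 2 probes lay at −0.22 and 0.25, and at −0.052 ± 0.13 on slide type 1. The difference between the ATPases was not tested. All 5 subunits measured on slide type 1 (Smarca4, Smarcc1, Smarcd1, Smarce1 and Arid1a) had means below the array median, between −0.16 and −0.052. The same side held 67.1% of all genes on that slide type. In treatment 3, Smarca4 (0.092), Smarcc1 (0.048) and Smarce1 (0.10) lay above 0. Of the 5, 0 passed in limma, with 1 at an unadjusted p under 0.05. Arid1b, on slide type 2, was at 0.32, −0.10 and 0.28 and did not pass.

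The ISWI ATPase Smarca5 (Snf2h) and its partners gave mixed values. Baz1a, which pairs with Smarca5 in the ACF remodeler, had 0.30, 0.43 and 0.31 on slide type 1 (mean 0.34 ± 0.073, limma adjusted p = 0.0037). By 2 other probes on slide type 2 it was at 0.017 ± 0.094. Smarca5 itself passed on slide type 2 on the negative side, with −0.20, −0.31 and −0.18 (−0.23 ± 0.072, adjusted p = 0.00416), and was at −0.10 ± 0.13 on slide type 1. The channel orders of Smarca5 on slide type 2 were −0.0059 and −0.45. Bptf, the large subunit of the NURF remodeler, was at −0.17 ± 0.092 on slide type 2 (adjusted p = 0.0228) and at −0.12 ± 0.11 on slide type 1, on the same side without passing. Without treatment 3 the slide type 2 value of Bptf (−0.14) did not pass, and its channel orders there were 0.19 and −0.54.

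Of the CHD remodelers, 2 of 4 passed on slide type 2, both on the negative side (50%, against 31.9% of all genes). On slide type 1, 0 of 5 passed in limma, and none had an unadjusted p under 0.05. Chd8, a regulator of Wnt target genes, had −0.50, −0.47 and −0.41 on slide type 2 (mean −0.46 ± 0.044, limma adjusted p = 1.06e-05). Its channel orders were −0.24 and −0.68, and the probe on slide type 1 was at −0.049 ± 0.075. Chd4, the ATPase of the NuRD complex, had −0.084, −0.37 and −0.12 (−0.19 ± 0.16, adjusted p = 0.0211) with channel orders at 0.17 and −0.56, and without treatment 2 it did not pass, at −0.10. Ruvbl2, an ATPase of the INO80 and Tip60 complexes, was at −0.24 ± 0.13 (adjusted p = 0.00468), with channel orders at −0.024 and −0.46. Smarcal1, an annealing helicase of stalled replication forks, was at −0.15 ± 0.086 (adjusted p = 0.0476), with channel orders at −0.15 and −0.14, and did not pass without treatment 1 (−0.097) or treatment 3 (−0.16). Ruvbl1, the partner of Ruvbl2, was at −0.089 on slide type 1 and did not pass.

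Of the bromodomain readers, 1 of 2 passed on the first slide type and 2 of 3 on the other, with negative means. The shares of all genes that passed on that side were 5.65% and 31.9%. Brd2 and Brd3, BET proteins that bind acetylated histones at active genes, lay at −0.44, −0.40 and −0.26 (mean −0.37 ± 0.095, limma adjusted p = 0.000142) and at −0.21, −0.30 and −0.16 (−0.22 ± 0.068, adjusted p = 0.00474) on slide type 2. In both, the channel orders had opposite signs, 0.092 and −0.83 for Brd2 and 0.025 and −0.47 for Brd3. The 3 probes of Brd3 ran from −0.37 to −0.10. Brd8, the bromodomain subunit of the Tip60 complex, had −0.33, −0.16 and −0.38 on slide type 1 (−0.29 ± 0.12, adjusted p = 0.0138). Brd8 did not pass without treatment 1 or without treatment 3, where its mean was −0.27 and −0.25, and was at 0.013 without centring. Brd1 did not pass on either slide type (0.077 and 0.043).

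The HP1 proteins Cbx1 and Cbx5, chromodomain readers of H3K9 methylation in heterochromatin, both passed on the negative side on slide type 2. On that side 31.9% of all genes passed there. Cbx5 (HP1 alpha) had −0.31, −0.42 and −0.36 there (mean −0.36 ± 0.058, limma adjusted p = 0.000122), with channel orders at −0.13 and −0.59. The probe for Cbx5 on slide type 1 lay on the other side in every treatment, at 0.15, 0.21 and 0.089 (0.15 ± 0.062, adjusted p = 0.127), and did not pass. Cbx1 (HP1 beta) had −0.29, −0.41 and −0.30 (−0.34 ± 0.068, adjusted p = 0.000253), with channel orders at −0.14 and −0.53, and Cbx3 (HP1 gamma) was at −0.0034 on slide type 1.

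Of the Polycomb genes in the set, none passed. The PRC2 subunits Eed (−0.020 and −0.035) and Suz12 (−0.076) and the chromodomain protein Cbx7 (−0.042) all had means below 0 within 0.1 of it. None of these Polycomb genes had an unadjusted p under 0.05 in limma. Of all genes, 67.1% on slide type 1 and 57.9% on slide type 2 had means below 0, and 11.4% and 50.4% passed. The maintenance DNA methyltransferase Dnmt1 (−0.033) and the de novo enzymes Dnmt3b (−0.090, slide type 1) and Dnmt3a (−0.15 ± 0.17, slide type 2, limma adjusted p = 0.0577) did not pass. Dnmt3l, their catalytically inactive partner, passed on slide type 2 at 0.22, 0.12 and 0.15 (mean 0.16 ± 0.052, adjusted p = 0.0275), with channel orders of −0.23 and 0.55, and lost its call without treatment 1 (0.13) or treatment 3 (0.17).

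How far the calls rest on both channel orders differed between the slide types. All 7 genes that passed on slide type 1 lay on the same side in all 6 values by treatment and channel order, where 345 of 437 of all genes that passed (78.9%) did. Of the 32 on slide type 2, 6 did so (Arid4a, Ing4, Ing5, Hdac3, Smarcd2 and Smarcal1), where 264 of 2052 of all genes that passed (12.9%) did. The 2 orders had opposite mean signs for 14 of the 32 genes, 10 with negative and 4 with positive means. They also did for 782 of the 2052 genes of any kind that passed. The share with the same sign was thus 56.25%, against 61.9% of all genes that passed. The 25 genes on the negative side had a median of −0.024 with heat-shocked RNA in channel 1 and −0.51 in channel 2. For all genes of slide type 2, passed or not, the medians were −0.035 and −0.12. Those of all genes that passed on the negative side were not taken. Over treatments 1 and 3 alone, 17 of the 32 genes had all 4 values on the same side (53.1%, against 50.5% of all genes that passed).

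**Figure D3:**
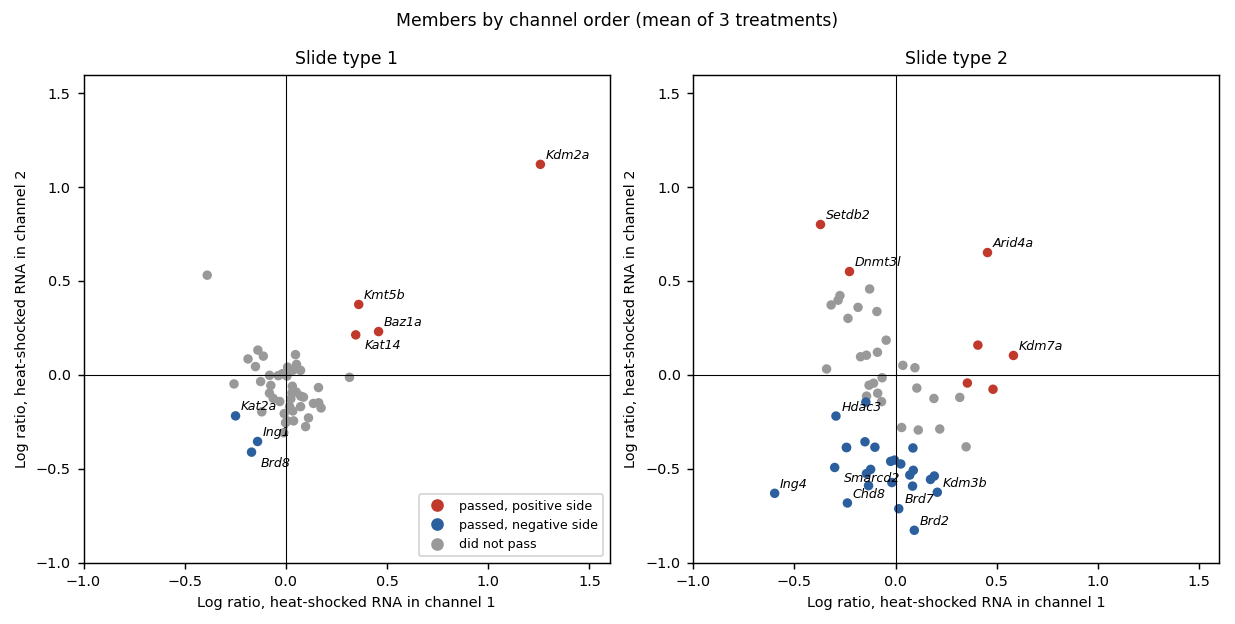
Mean log ratio of each chromatin gene over the 3 treatments with heat-shocked RNA in channel 1 (horizontal axis) and in channel 2 (vertical axis), for slide type 1 (left) and slide type 2 (right), in centred log units with the base not stated and coloured by whether and on which side the gene passed. On slide type 1 the genes that passed lie in the quadrants where both orders have the same sign. On slide type 2 the 25 on the negative side have a median of −0.024 in channel 1 and −0.51 in channel 2. The medians of all genes there, passed or not, are −0.035 and −0.12.

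The 21 genes on both slide types could be compared between different probes. The labels number the treatments alike on both slide types but do not state that the same RNA was used. Their means correlated with Pearson's r = 0.33 and Spearman's rho = 0.39 across genes, close to 0.28 and 0.35 for the 943 genes of any kind on both slide types, and genes are not independent replicates. On both slide types 14 of the 21 lay on the same side (66.7%, against 61.0% of the 943). Of the 21, 3 passed on slide type 1, where 11.4% of all genes did, and 10 on slide type 2, where 50.4% did. The other 9 passed on neither, and these counts were not made for the 943 genes. The widest gaps were those of Cbx5 (0.15 and −0.36 on slide types 1 and 2), Chd8 (−0.049 and −0.46), Kdm7a (−0.053 and 0.34) and Baz1a (0.34 and 0.017). The probes, the arrays and the spread between channel orders all differ between the slide types, and their parts in these gaps cannot be told apart.

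**Figure D4:**
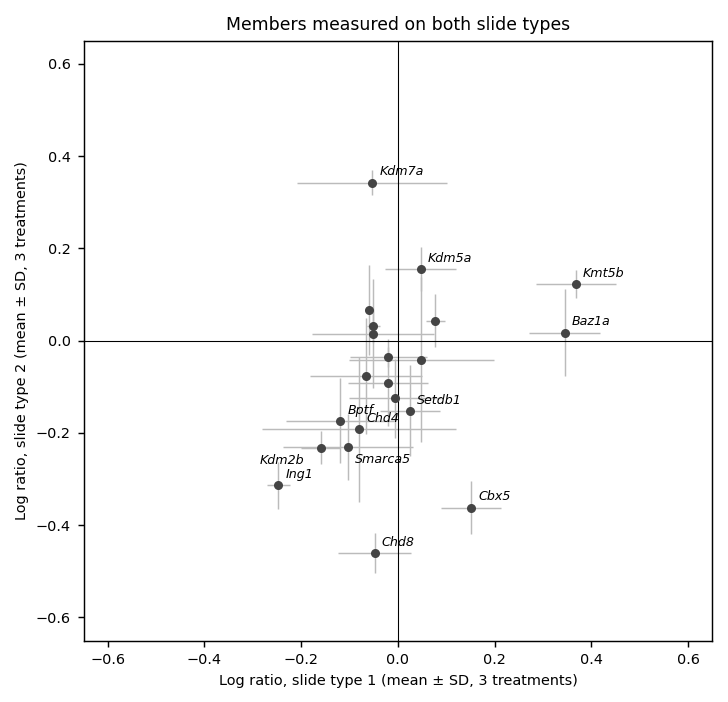
Log ratio of the 21 chromatin genes measured on both slide types, slide type 1 on the horizontal and slide type 2 on the vertical axis, as the mean of 3 treatments with bars of 1 SD, in centred log units with the base not stated. Ing1 lies low on both axes, while Cbx5, Chd8 and Kdm7a lie further from 0 on slide type 2 (−0.36, −0.46 and 0.34) than on slide type 1 (0.15, −0.049 and −0.053).

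Partner genes of the same complexes, from 5 lists that hold none of the 87 genes, were counted in the same way. For slide type 1, 3 of 42 measured partners had calls above 0 (7.14%, against 5.73% of all genes) and 4 below it (9.52%, against 5.65%). For slide type 2, 4 of 49 had calls above 0 (8.16%, against 18.5%) and 15 below it (30.6%, against 31.9%). Ss18, a SWI/SNF subunit, had the largest value, 0.86, 0.79 and 0.84 on slide type 1 (mean 0.83 ± 0.035, limma adjusted p = 1.43e-05). Another probe, on slide type 2, put Ss18 on the other side, at −0.27, −0.24 and −0.19 (−0.24 ± 0.040, adjusted p = 0.00311), so this gene passed with opposite signs on the 2 slide types. Its channel orders were 1.14 and 0.53 on slide type 1 but −0.032 and −0.44 on slide type 2, near 0 in the first of these. Pbrm1, the polybromo subunit that goes with Brd7, was at −0.25 on slide type 2.

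Among NuRD and Sin3 partners, the histone chaperones Rbbp7 (−0.36) and Rbbp4 (−0.18) passed on slide type 2 and Mbd3 (−0.21) on slide type 1, all with negative means, while Gatad2b passed on slide type 2 with a positive mean (0.16). In the Tip60 and INO80 group, Morf4l1 (−0.29) and Yeats4 (−0.27) passed on slide type 1, and Dmap1 (−0.37) and Ep400 (0.19) on slide type 2, on opposite sides. Of the Polycomb and trithorax partners, Men1 (−0.51 ± 0.054), a subunit of Kmt2 complexes, and the Ezh2 paralogue Ezh1 (−0.48 ± 0.18) passed on slide type 2 with 5 further genes of negative and 1 of positive mean (Asxl2, 0.42), and Jarid2 (0.22) and Ash2l (0.23) on slide type 1. Trim28 (−0.34), the corepressor that recruits Setdb1, and the remodeler Hells (−0.34) also passed on the negative side on slide type 2. Uhrf1 (−0.21), which guides Dnmt1, did so on slide type 1. Taf1 (0.32) passed with a positive mean on slide type 2. Jarid2 (−0.099) and Ash2l (−0.079) had the opposite sign on slide type 2 and did not pass there. On slide type 1, Gatad2b (−0.0055), Ep400 (0.013), Pbrm1 (−0.14) and Trim28 (−0.13) did not pass, the last 3 with the same sign as on slide type 2. When any 1 treatment was left out, Mbd3, Jarid2, Ash2l and Uhrf1 no longer passed (means from −0.22 to −0.20, 0.19 to 0.25, 0.16 to 0.28 and −0.21 to −0.20). Without treatment 1 the same held for Morf4l1 (−0.25) and Yeats4 (−0.27), and without treatment 1 or 3 for Rbbp4 (−0.18 and −0.20), Ep400 (0.20 and 0.15) and Gatad2b (0.17 and 0.15).

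Promoters were searched for the letters that heat shock factor is known to bind, repeats of GAA and its reverse TTC spaced by any 2 bases. RefSeq windows of 300 bases, 250 before to 50 after a transcription start, on GRCm38.p6 were matched by symbol for 70 of the 87 genes, with 101 windows. The motif of 3 units, GAANNTTCNNGAA on either strand, was in 1 of those windows (0.990%) and in 198 of 32851 windows of all genes (0.603%). The shorter GAANNTTC was in 6.93% of the windows of chromatin genes and 7.86% of all, and TTCNNGAA in 4.95% and 8.52%. Each of the shorter motifs equals its own reverse complement, and the longer one contains both.

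The windows below show Hsph1 as a heat shock gene with such letters, Dnmt1 with the only 3-unit match of the set, the genes that passed and had a short match on slide type 2 (Smarca2, Smarca5 and Brd7), and Ing4, which had the lowest value of the set and no match. They run 5′ to 3′ in the direction of the gene, with matched letters in capitals, at chr5:149636266-149636565 (minus strand), chr9:20959839-20960138 (minus), chr19:26604910-26605209 (plus), chr8:80739410-80739709 (minus), chr8:88362123-88362422 (minus) and chr6:125039598-125039897 (plus).
Hsph1: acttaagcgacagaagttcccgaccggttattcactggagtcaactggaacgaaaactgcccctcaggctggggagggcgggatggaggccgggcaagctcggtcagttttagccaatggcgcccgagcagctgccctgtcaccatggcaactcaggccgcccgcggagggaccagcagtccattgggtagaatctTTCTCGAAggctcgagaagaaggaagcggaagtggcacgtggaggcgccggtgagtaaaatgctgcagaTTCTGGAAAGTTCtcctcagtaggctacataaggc
Dnmt1: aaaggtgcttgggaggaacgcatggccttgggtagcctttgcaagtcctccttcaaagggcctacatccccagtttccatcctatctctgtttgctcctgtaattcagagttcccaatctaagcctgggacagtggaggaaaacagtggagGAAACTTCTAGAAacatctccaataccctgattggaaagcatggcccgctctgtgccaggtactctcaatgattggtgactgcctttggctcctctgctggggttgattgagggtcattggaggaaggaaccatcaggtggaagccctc
Smarca2: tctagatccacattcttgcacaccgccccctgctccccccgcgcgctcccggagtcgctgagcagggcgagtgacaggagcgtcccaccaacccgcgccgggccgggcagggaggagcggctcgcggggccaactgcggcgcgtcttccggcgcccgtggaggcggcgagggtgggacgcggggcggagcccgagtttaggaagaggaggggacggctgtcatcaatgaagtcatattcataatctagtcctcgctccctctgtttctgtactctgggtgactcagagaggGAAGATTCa
Smarca5: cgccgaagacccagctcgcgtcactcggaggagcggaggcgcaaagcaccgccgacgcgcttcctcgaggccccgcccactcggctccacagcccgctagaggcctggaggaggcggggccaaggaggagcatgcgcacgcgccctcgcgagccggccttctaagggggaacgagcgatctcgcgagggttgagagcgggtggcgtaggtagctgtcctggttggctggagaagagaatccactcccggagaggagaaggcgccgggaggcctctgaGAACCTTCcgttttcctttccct
Brd7: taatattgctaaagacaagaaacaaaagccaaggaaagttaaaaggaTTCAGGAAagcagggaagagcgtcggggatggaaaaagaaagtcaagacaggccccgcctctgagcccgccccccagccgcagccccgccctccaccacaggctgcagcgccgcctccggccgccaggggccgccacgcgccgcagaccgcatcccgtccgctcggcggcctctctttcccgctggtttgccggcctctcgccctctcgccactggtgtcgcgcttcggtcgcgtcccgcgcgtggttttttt
Ing4: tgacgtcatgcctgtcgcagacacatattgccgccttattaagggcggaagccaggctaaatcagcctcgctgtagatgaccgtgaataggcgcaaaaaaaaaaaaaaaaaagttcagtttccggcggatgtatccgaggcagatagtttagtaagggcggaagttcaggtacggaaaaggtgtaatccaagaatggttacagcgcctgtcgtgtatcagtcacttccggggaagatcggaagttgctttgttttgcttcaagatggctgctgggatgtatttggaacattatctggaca
Counted from the start site, the match of Dnmt1 lay at −99 to −87 and that of Brd7 at −203 to −196, before the start, while those of Smarca2 and Smarca5 lay after it, at 42 to 49 and 28 to 35. Dnmt1 did not pass the test. A short match was found on slide type 2 in the windows of 1 of 4 genes that passed on the positive side, 2 of 22 on the negative side and 3 of 20 that did not pass. For slide type 1 it was found in 0 of 4 that passed and 7 of 36 that did not. Of the genes that passed, no window was at hand for Kdm2a, Arid4a, Baz1a, Kdm3b, Kdm4b, Kdm5a, Brd8, Hdac1 or Hdac3. A match is a run of letters and not a shown binding site.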

How the data were processed

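The 24 arrays measured total RNA of heat-shocked and control mouse embryos in 2 channels. The values are the authors' deposited log ratios, treated as a score: log base, numerator, background correction and normalization were not given in the sources at hand. No spot intensities were used, so dim spots could not be set apart. The 2 tables held 12 arrays and 7680 probes each, 0 missing values and no unmapped column. A ratio was taken as channel 1 over channel 2, and turned where the labels' source names put heat-shocked RNA in channel 2. From each array's values their median over the whole array was subtracted. Gene values are means of the probes that carry exactly that 1 symbol in the platform annotation. Arrays of a treatment and slide type were averaged with equal weight for the channel orders, and 3 treatments were the replicates. Tests used limma 3.58.1 in R 4.3.3 (lmFit and eBayes on an intercept), with Benjamini-Hochberg adjustment at 0.05 over all genes of a slide type. The number of arrays limits the precision.

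On simulated data, 60 of 100 genes changed by 0.3 units and 87 of 100 changed by 0.6 were recovered among 3838 genes on slide type 1, with 5 of 3638 unchanged genes called. On slide type 2, with 4075 genes, these numbers were 60, 90 and 6 of 3875. The simulated noise was independent between genes, was drawn with each gene's SD between treatment means, and held no channel orders. Only 100 genes per size were changed, whereas 50.4% of all genes passed on slide type 2. The simulation thus shows how the test works on such noise and cannot tell how many calls in these data are false.

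The genes and lists were chosen with earlier results of these data known. Genes named are those that passed with the same sign in each treatment (the 12 furthest from 0 per side), those on both slide types, the furthest from 0 of any role left without a name, up to 2 partners per list and slide type that passed, and 5 heat or stress genes. The further chromatin genes and the partners Asxl2, Gatad2b, Phc2 and Taf1 were named after their values were seen. Alternatives were other centring, the first probe of a gene, 1 channel order, a robust prior, leaving out a treatment, and a replicate block. Promoters and their coordinates are from RefSeq. Figures were drawn with matplotlib 3.10.9.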

Additional observations from a re-analysis of the deposited data

How the results depend on the processing

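Precision is limited by 3 treatments, an unstated log base and direction, and, on slide type 2, by the distance between channel orders. Calls of Kdm2a (1.12 to 1.49) and Kmt5b on slide type 1 (0.33 to 0.67) held under all 10 alternatives, and those of Arid4a and Ing4 under 8, being lost in each channel order alone.

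On slide type 1, chromatin genes with a negative call (3) became 0 with channel 2 order alone (6 at an unadjusted limma p under 0.05), 0 without centring (0 unadjusted), 5 with the replicate block, and 0 to 2 without 1 treatment. On the positive side (4) they became 2 with channel 2 order alone. Of those on slide type 2, the negative side (25) became 0 with channel 1 order alone (1 unadjusted), 0 with channel 2 order alone (17 unadjusted) and 1 without centring (Ing4). The positive side (7) became 12 with centring on probes with 1 symbol, 0 with channel 1 order alone (4 unadjusted), 0 with channel 2 order alone (5 unadjusted), 1 without centring (Arid4a) and 3 to 9 without 1 treatment. The replicate block of treatment over single arrays gave 5 positive genes on slide type 1 and 9 positive and 27 negative on slide type 2. Its estimated correlation within treatments was 0.065 and −0.20, and pairing of the arrays by treatment number was not shown. The fit held a channel effect common to all treatments, while the orders of treatment 2 on slide type 2 stood 0.99 apart (median of all genes). The value there thus cannot decide on pairing. A negative value means that treatment means lay closer together than the spread of single arrays would give, so p-values from the 3 means may be too small there.

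The median of the chromatin genes on slide type 1 (−0.033) was 0.0096 with centring on probes with 1 symbol, 0.018 and −0.091 in channel 1 and 2 order, −0.049 with first probes and 0.27 without centring, where that of all genes was also 0.27. For slide type 2 (−0.093) these were −0.018, −0.070, −0.14, −0.13 and −0.010, and −0.13 to −0.093 without 1 treatment.

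Over all genes of slide type 1, the negative count (217) was 119 with centring on probes with 1 symbol, 431 and 125 in channel 1 and 2 order alone, 5 without centring, 473 with the replicate block and 53 to 245 without 1 treatment. The positive count (220) was 408 and 69 in channel 1 and 2 order alone and 125 to 195 without 1 treatment. For slide type 2 the negative count (1299) was 861 with centring on probes with 1 symbol, 6 and 11 in the single orders and 65 without centring. The positive count (753) was 1249, 44, 13 and 76 in the same settings and 293 to 983 without 1 treatment.

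Among the chromatin genes, partners and markers that passed, those on the other side under an alternative were, in channel 1 order alone on slide type 2, Bptf (0.19), Brd2 (0.092), Brd3 (0.025), Brd7 (0.016), Chd4 (0.17), Dnmt3l (−0.23), Ehmt2 (0.084), Ep400 (−0.024), Hdac1 (0.087), Kdm2b (0.070), Kdm3b (0.21), Pbrm1 (0.079), Phc2 (0.050), Rbbp4 (0.064), Rbbp7 (0.053), Setdb1 (0.086) and Setdb2 (−0.37). In channel 2 order alone they were Gatad2b (−0.070), Kdm5a (−0.044), Smarca2 (−0.077) and Taf1 (−0.034). Without centring on slide type 1 they were Brd8 (0.013), Ing1 (0.056), Kat2a (0.070), Mbd3 (0.098), Morf4l1 (0.015), Tubb3 (0.094), Uhrf1 (0.098) and Yeats4 (0.032). With first probes, Kat14 was at −0.071 on slide type 1, and Smarca4, which had not passed, passed at −0.22 on slide type 2. Without centring the offset of each array stays in every gene. The cause of the other differences was not tested.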
